A study of Mus musculus with 16 samples.

Results

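The genes described here encode the signalling chains of the T cell receptor complex, its coreceptor and its first kinases: Cd3e, Cd3d, Cd3g, Cd247, Cd4, Cd5, Cd6, Zap70 and Lck. They were chosen by name, and every probe set to which the platform annotation gives exactly 1 of these symbols was taken. This gave 14 of 34945 probe sets with a single symbol, for 8 of the 9 genes: 4 for Cd247, 3 for Zap70, 2 for Cd4 and 1 each for Cd3e, Cd3d, Cd3g, Cd5 and Cd6. Lck was not analysed here.

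The samples were mouse CD4+ T cells, sorted as naive cells (CD44-, CD62L+) and activated over 3 days by antibodies against CD3 and against CD28. WT cells carried floxed Stat3 alleles (labelled STAT3floxed), and STAT3-deficient cells carried the same alleles with a Cre recombinase (CD4 Cre; STAT3floxed), which CD4 control elements drive in developing T cells. Cells of each genotype were kept in medium alone, in IL-6 (10 ug/ml, as the labels give it), in TGFb (2.5 ug/ml) or in IL-6 with TGFb, which makes 8 groups of 2 arrays. The labels give neither the age of the mice nor whether cells were pooled. Nor do they say where the replicates came from. Sex-linked genes, given below, differed between the replicate numbers in every group, so the 2 arrays of a group were not repeats of the same sample. The tests can only set differences against the spread among these arrays, and how many animals this spread covers is not given.

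The receptor on a T cell binds peptide on MHC through its alpha and beta chains, which have no signalling domain of their own. The CD3 epsilon, delta and gamma chains and the zeta chain (Cd247) carry the tyrosine motifs that Lck phosphorylates, and ZAP-70 docks on these motifs and phosphorylates the adaptors that relay the signal. CD4 binds MHC class II and brings Lck to the receptor, and CD5 and CD6 are scavenger-receptor family proteins that tune the signal. STAT3, activated through the IL-6 receptor, and the SMAD proteins, activated by TGFb, act in other pathways that meet this one in the nucleus.

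The neighbouring CD3 genes lie in 1 row, Cd3g, Cd3d and Cd3e with no other coding gene between them, and Cd5 and Cd6 are also neighbours, per the RefSeq gene table of GRCm38.p6. A RefSeq promoter was at hand for 7 of the 9 genes, with 10 starts in all. The 250 bases before the start are shown for the CD3 row, because its members did not move alike across the arrays, and for Cd5, which differed between the replicates. Capitals mark a match to TTCNNNGAA (the core that STAT proteins bind) or to CAGGAAG (an ETS core), on either strand; each sequence runs 5′ to 3′ along its gene.
Cd3e (chr9:45009612-45009861, minus strand): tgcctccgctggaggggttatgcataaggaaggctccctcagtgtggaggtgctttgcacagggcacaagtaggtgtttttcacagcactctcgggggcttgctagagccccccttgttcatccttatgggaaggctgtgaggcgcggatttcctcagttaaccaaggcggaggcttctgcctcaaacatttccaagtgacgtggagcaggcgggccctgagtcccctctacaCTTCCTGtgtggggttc
Cd3d (chr9:44981536-44981785, plus strand): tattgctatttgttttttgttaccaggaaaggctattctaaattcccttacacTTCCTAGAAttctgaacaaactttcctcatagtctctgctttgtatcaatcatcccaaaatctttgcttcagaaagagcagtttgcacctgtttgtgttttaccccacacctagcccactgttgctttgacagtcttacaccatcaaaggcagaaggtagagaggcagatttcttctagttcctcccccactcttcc
Cd3g (chr9:44980432-44980681, minus strand): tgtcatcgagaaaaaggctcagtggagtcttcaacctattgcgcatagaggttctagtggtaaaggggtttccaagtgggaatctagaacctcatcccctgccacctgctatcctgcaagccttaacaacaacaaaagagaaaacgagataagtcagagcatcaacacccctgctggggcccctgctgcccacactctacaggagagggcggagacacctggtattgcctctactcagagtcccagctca
Cd5 (chr19:10738975-10739224, minus strand): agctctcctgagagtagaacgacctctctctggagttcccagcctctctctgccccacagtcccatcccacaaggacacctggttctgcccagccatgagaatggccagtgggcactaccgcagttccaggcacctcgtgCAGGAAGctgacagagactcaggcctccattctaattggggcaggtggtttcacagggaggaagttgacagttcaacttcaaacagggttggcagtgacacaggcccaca

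In these windows TTCNNNGAA stood only before Cd3d, 197 bases from the start, which is 1 of 10 member promoters against 7.02% of 32851 RefSeq promoters of the same length. CAGGAAG stood in 6 of 10 against 10.8%, among them Cd3e (17 bases from the start) and Cd5 (110 bases). TGTGGT, a RUNX core, stood in 2 of 10 against 14% (1 Zap70 and 1 Lck start), and GTCTAGAC, a SMAD palindrome, in none against 0.167%. The motifs were chosen after the values were known and do not overlap each other in these windows. A match describes letters, not a site in use.

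Several features of the arrays bear on the values that follow. Stat3 read log2 8.4 to 10.46 in STAT3-deficient and 10.22 to 12.18 in WT cells, ranges that overlapped. The overlap was between STAT3-deficient TGFb replicate 2 (10.46) and WT medium replicate 1 (10.22). Within the same condition and replicate number, the WT array always read higher. The library labelled STAT3-deficient, TGFb, replicate 1 stood apart: Il17a, the gene of the Th17 cytokine, read 9.55 there against 6.04 to 6.51 on the other 7 STAT3-deficient arrays and 10.16 to 11.58 in WT IL-6 with TGFb. That library read Stat3 at 8.46 and the cytokine gene Il21 at 5.32, where the WT IL-6 with TGFb arrays read Il21 at 12.39 and 11.54. Results that rest on that library are also given without it and without STAT3-deficient IL-6 with TGFb replicate 1. These 2 are called the doubted libraries below. The second read Stat3 at 9.01, Il17a at 6.29 and Il21 at 4.7, within the range of the other STAT3-deficient arrays, so these readings do not set it apart. The transcription factor gene Foxp3 set the WT TGFb arrays apart from each other, at 4.81 in replicate 1 and 9.99 in replicate 2. It read 4.39 and 5 in WT medium and 4.81 and 7.9 in WT IL-6 with TGFb. In STAT3-deficient cells it read 7.96 and 9.98 in TGFb and 7.35 and 8.99 in IL-6 with TGFb. What this means for the WT TGFb values was not tested. Replicate 1 arrays read the X-linked Xist at 11.91 to 13.21 and replicate 2 arrays at 6.64 to 7.6, with the reverse for the Y-linked Eif2s3y (3.81 to 4.52 and 9.84 to 10.98). The Actb controls, read at the 5' and the 3' end of the transcript, differed (5' minus 3') by -0.5 to -0.11 in replicate 1 and by -1.71 to -0.88 in replicate 2. Markers of CD8 T, B, myeloid and erythroid cells (11 of 11 measured) stayed under log2 8 on all arrays, as did 2 of 3 NK and 2 of 4 dendritic cell markers. The third NK marker, Klrd1, reached 12.85: the summed NK markers lay at 12.08 to 12.86 in WT IL-6 with TGFb and 6.43 to 7.21 in WT medium, and their part in the results was not tested. No gamma delta T cell marker was measured.

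All 8 measured genes were read well above the level minimum of log2 6 used for testing, between 9.64 and 13.55 for the brightest probe set of each over 16 arrays. All 14 probe sets met the minimum on at least 2 arrays, the dimmest being Cd247 probe set 1426079_at (5 of 16 arrays). Limma called 0 of 8 genes in each of 20 comparisons of genotypes or cytokine conditions (adjusted p under 0.05 over 13007 genes). It also called 0 with the replicate number as a block. Some unadjusted confidence intervals given below, such as those of Cd247 and Cd4 in WT, excluded 0. Group means spanned a median of 0.74 log2 units over the 8 groups for these genes and 0.66 over all genes tested. Their residual SD within groups had a median of 0.43, against 0.29 over all genes, so the replicates of these genes lay further apart than those of most genes.

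**Figure D1:**
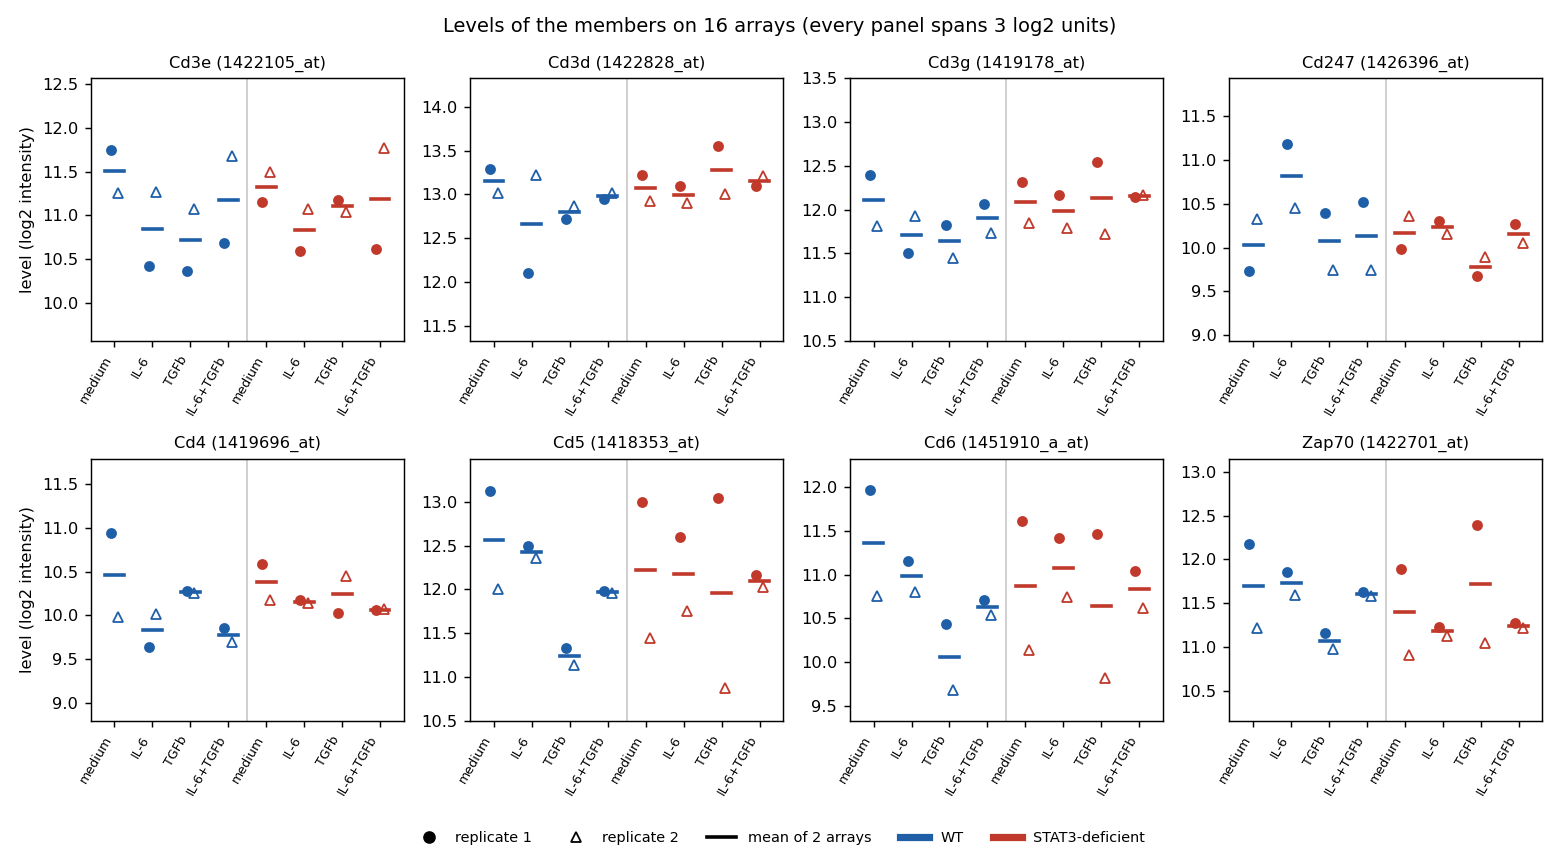
Level (log2 intensity, vertical axis) of 8 genes on 16 arrays, by cytokine condition (horizontal axis), WT in blue and STAT3-deficient in red. Circles are replicate 1, triangles replicate 2 and bars the mean of 2 arrays; in each group the Cd5, Cd6 and Zap70 circles lie above the triangles, and the Cd5 and Cd6 means are lowest in WT TGFb.

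No CD3 chain was called between groups, which does not show that their levels were the same. Cd3d (1422828_at), the delta chain, read 12.1 at the lowest (WT IL-6, replicate 1), and its other 15 arrays lay between 12.72 and 13.55. Cd3g (1419178_at), the gamma chain, ran from 11.45 in WT TGFb replicate 2 to 12.55 in STAT3-deficient TGFb replicate 1. Cd3e (1422105_at), the epsilon chain, ran from 10.36 in WT TGFb replicate 1 to 11.77 in STAT3-deficient IL-6 with TGFb replicate 2. Its group means spanned 0.79, from 10.72 in WT TGFb to 11.5 in WT medium with a residual SD of 0.51. The spans of Cd3d and Cd3g were 0.62 and 0.53, with residual SDs of 0.34 and 0.34. In the order of the group means, neighbours lay closer than the residual SD for each gene of the set except Cd247, where WT IL-6 (10.82) stood above STAT3-deficient IL-6 (10.24).

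The zeta chain, Cd247, was read by 4 probe sets that did not move alike. The brightest, 1426396_at, read 11.19 and 10.45 in WT IL-6 (replicates 1 and 2), against 9.73 and 10.33 in WT medium, 10.4 and 9.75 in WT TGFb and 10.52 and 9.75 in WT IL-6 with TGFb. In STAT3-deficient cells it read 9.98 and 10.36 in medium, 10.31 and 10.16 in IL-6, 9.68 and 9.89 in TGFb and 10.27 and 10.05 in IL-6 with TGFb. The highest reading was WT IL-6 replicate 1; WT IL-6 replicate 2 lay within the range of the other groups. The log2 change from medium to IL-6 in WT was 0.79 (95% CI 0.03 to 1.54, adjusted p = 0.372), and it was 0.42 without WT IL-6 replicate 1, 0.49 without WT medium replicate 1 and 0.56 with the mean of the 4 probe sets. Probe sets 1452539_a_at and 1420716_at changed by 1 and 1.01 in the same comparison (adjusted p = 0.661 for both), and 1426079_at by -0.57 (adjusted p = 0.618). Over the 16 arrays 1426396_at and 1452539_a_at correlated at r = 0.75 and 1420716_at and 1426079_at at r = -0.83. These share their libraries, and 1426079_at lay near background.

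The coreceptor Cd4 (1419696_at) was highest in WT medium replicate 1. It read 10.94 and 9.98 in WT medium, 9.64 and 10.02 in WT IL-6, 10.28 and 10.25 in WT TGFb and 9.85 and 9.7 in WT IL-6 with TGFb. In STAT3-deficient cells it read 10.59 and 10.18 in medium, 10.17 and 10.14 in IL-6, 10.03 and 10.45 in TGFb and 10.06 and 10.07 in IL-6 with TGFb. In WT the arrays with IL-6 lay at 9.64 to 10.02 and those without at 9.98 to 10.94, overlapping by 1 array on each side. The mean effect of IL-6 on Cd4 in WT was -0.56 (SE 0.2, 95% CI -1.01 to -0.11, adjusted p = 0.261). It was -0.32 without WT medium replicate 1, and -0.31 with the mean of both probe sets. In STAT3-deficient cells it was -0.2 (95% CI -0.65 to 0.25), and the effects differed by 0.36 (95% CI -0.27 to 0.99, adjusted p = 0.663), so no difference between genotypes was shown. From medium to IL-6 with TGFb in WT, Cd4 changed by -0.68 (95% CI -1.32 to -0.05, adjusted p = 0.266). A dimmer probe set, 1427779_a_at, ran from 5.91 to 7.09.

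Zap70, the kinase that docks on the phosphorylated chains, was read by 3 probe sets. The brightest, 1422701_at, ran from 10.91 (STAT3-deficient medium, replicate 2) to 12.39 (STAT3-deficient TGFb, replicate 1), with a span of group means of 0.67 and a residual SD of 0.49. Probe sets 1440178_x_at (10.25 to 10.93) and 1439749_at (8.96 to 9.69) varied less. The first correlated with 1422701_at at r = 0.84 over the 16 arrays, the second at r = 0.44.

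Of the brightest probe sets, those of Cd5 and Cd6, the receptors that tune the signal, had the widest range. Cd5 (1418353_at) read 13.12 and 12.01 in WT medium, 12.5 and 12.36 in WT IL-6, 11.33 and 11.14 in WT TGFb and 11.98 and 11.96 in WT IL-6 with TGFb. In STAT3-deficient cells it read 13 and 11.45 in medium, 12.6 and 11.75 in IL-6, 13.04 and 10.87 in TGFb and 12.17 and 12.03 in IL-6 with TGFb. Both WT TGFb arrays lay below all other WT arrays, and the STAT3-deficient TGFb pair held both the highest and the lowest reading of that genotype. Cd6 (1451910_a_at) read 11.97 and 10.75 in WT medium, 11.16 and 10.8 in WT IL-6, 10.44 and 9.68 in WT TGFb and 10.71 and 10.54 in WT IL-6 with TGFb. In STAT3-deficient cells it read 11.61 and 10.14 in medium, 11.42 and 10.74 in IL-6, 11.46 and 9.82 in TGFb and 11.04 and 10.62 in IL-6 with TGFb. Its lowest array was in WT TGFb and its highest in WT medium.

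Loss of STAT3 was compared with WT in each condition. In medium, where 0% of all genes tested were called, limma called 0 of 8 (0 at an unadjusted p under 0.05, beside 0.131% of all genes). The changes there lay between -0.49 (Cd6) and 0.14 (Cd247). Under IL-6, where 3.29% of all genes were called, limma called 0 of 8, with 0 unadjusted beside 21.7% of all genes. The changes ran from -0.58 for Cd247 (95% CI -1.34 to 0.18) and -0.55 for Zap70 (-1.51 to 0.4) to 0.34 for Cd3d (-0.36 to 1.03). Under IL-6 with TGFb, where 1.19% were called, limma called 0 of 8, with 0 unadjusted beside 10.1% of all genes. The changes there ran from -0.37 (Zap70) to 0.29 (Cd4). Cd3e changed by -0.01 under IL-6 and 0.01 under IL-6 with TGFb, with 95% CIs of -1.01 to 0.98 and -0.99 to 1. For Cd5 and Cd6 under IL-6 they reached from -1.69 to 1.18 and from -1.23 to 1.42.

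Under TGFb the value depended on 1 library. Limma called 0 of 8, against 0% of all genes, with 0 unadjusted beside 0.684%. Of the changes, 6 of 8 were above 0, among them Cd5 at 0.72, Zap70 at 0.65 and Cd6 at 0.57. Without the library that stood apart and its IL-6 with TGFb counterpart, these were -0.37, -0.02 and -0.24 (adjusted p = 1 for each), so their direction turned.

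**Figure D2:**
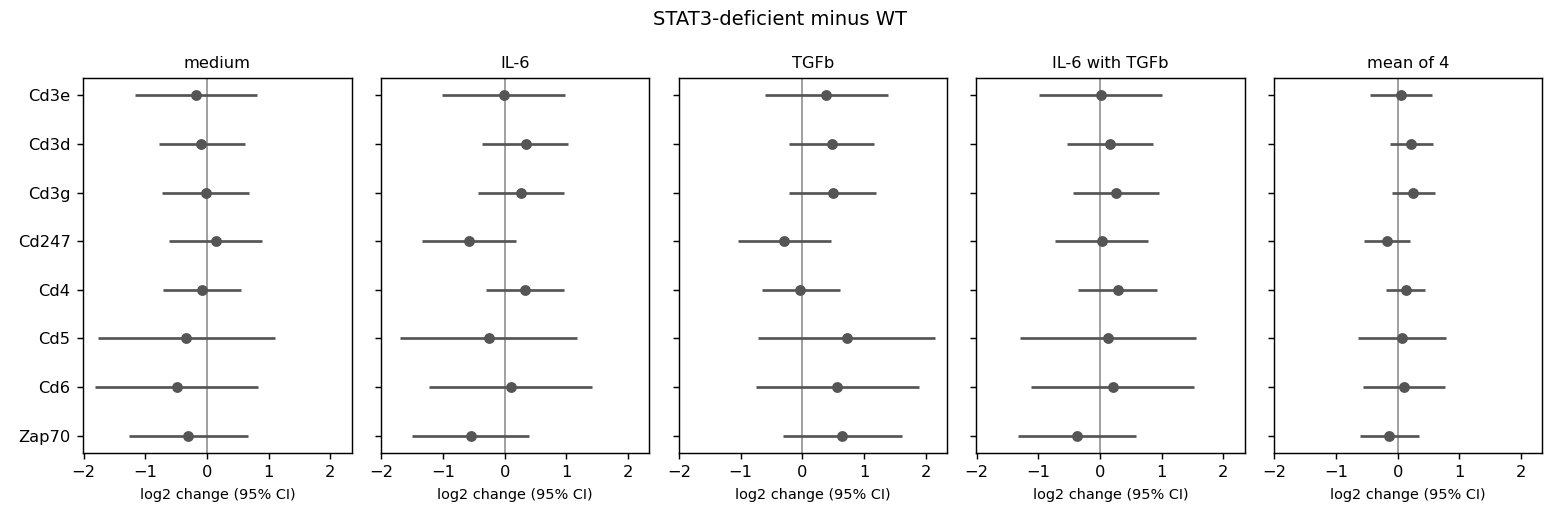
Log2 change, STAT3-deficient minus WT (horizontal axis, points), with its 95% confidence interval (lines) for 8 genes (vertical axis) in medium, IL-6, TGFb, IL-6 with TGFb and on the mean over these 4 conditions. Every interval includes 0; the mean over conditions, with the narrowest intervals, runs from -0.18 (Cd247) to 0.25 (Cd3g).

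Averaged over the 4 conditions, 0.969% of all genes were called and limma called 0 of 8 (0 unadjusted, beside 15.9% of all genes). The changes were 0.05 for Cd3e (95% CI -0.45 to 0.55), 0.22 for Cd3d (-0.12 to 0.57), 0.25 for Cd3g (-0.1 to 0.6) and -0.18 for Cd247 (-0.55 to 0.2). For Cd4 the change was 0.13 (-0.19 to 0.44), for Zap70 -0.14 (-0.62 to 0.34), for Cd5 0.07 (-0.65 to 0.78) and for Cd6 0.1 (-0.56 to 0.76). For Cd3d, Cd3g, Cd247, Cd4 and Cd3e these intervals reach no further than 0.6 log2 units from 0. In bulk RNA, fewer cells of a type and less RNA per cell cannot be told apart.

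Each cytokine condition was then set against medium within a genotype; these comparisons share their medium arrays. In WT, 0.284%, 0.223% and 3% of all genes were called for IL-6, TGFb and IL-6 with TGFb, and limma called 0 of 8 in each. Unadjusted, 1, 0 and 1 of 8 passed (the Cd247 and Cd4 changes given above), beside 12.6%, 10.8% and 16.2% of all genes. In WT, 6, 7 and 7 of 8 changes were below 0, with medians of -0.39, -0.55 and -0.26 against 0, 0.02 and -0.04 over all genes. In STAT3-deficient cells 0%, 0.354% and 0.138% of all genes were called, and limma called 0 of 8 in each (0 unadjusted in each, beside 1.33%, 12.4% and 5.98% of all genes). The medians were -0.09, -0.18 and -0.08 against -0.08, -0.02 and -0.05.

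The largest changes from medium were those of Cd5 and Cd6 in WT TGFb. Cd5 changed by -1.33 (SE 0.65, 95% CI -2.76 to 0.11; adjusted p = 0.504) and Cd6 by -1.3 (SE 0.6, -2.62 to 0.02; adjusted p = 0.471). With the replicate number as a block the 95% intervals were -2.36 to -0.29 and -2.04 to -0.56, which exclude 0. The limma adjusted p values with the block were 0.191 and 0.118. In STAT3-deficient cells the changes were -0.27 and -0.24, and without the pair of doubted libraries -1.36 and -1.06 (adjusted p = 0.448 and 0.574). The difference between the TGFb effects of the genotypes was 0.72 for Cd5 (95% CI -0.71 to 2.15) and 0.59 for Cd6 (-0.74 to 1.91), and 0.14 and 0.07 without those libraries. Neither passed the test.

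**Figure D3:**
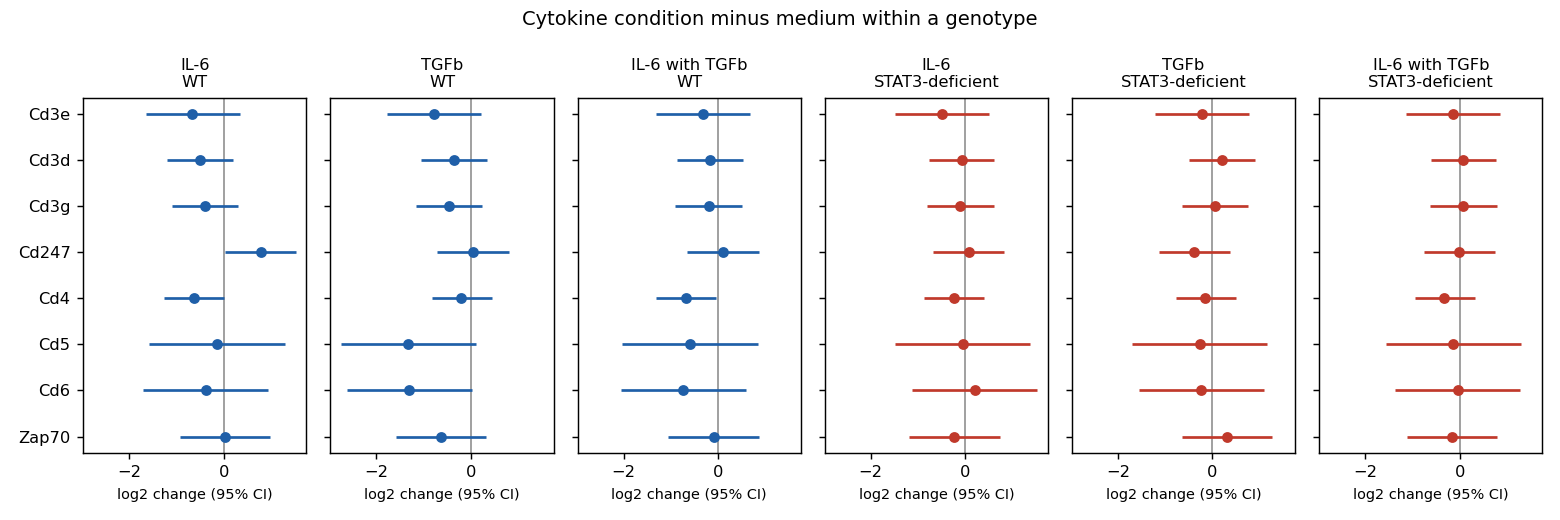
Log2 change from medium (horizontal axis, points) with its 95% confidence interval (lines) for 8 genes (vertical axis) under IL-6, TGFb and IL-6 with TGFb, in WT (blue) and STAT3-deficient cells (red). The Cd5 and Cd6 points lie farthest below 0, in WT TGFb, and the Cd247 point farthest above, in WT IL-6.

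Averages over the design gave the same picture with more arrays per side. For TGFb over both genotypes and both IL-6 states, 9.25% of all genes were called and limma called 0 of 8 (0 unadjusted, beside 23.9% of all genes). Cd5 and Cd6 each changed by -0.53 (95% CI -1.25 to 0.18 and -1.2 to 0.13), and by -0.82 and -0.79 without the doubted libraries. With the replicate block the 95% intervals were -1.05 to -0.01 for Cd5 and -0.91 to -0.16 for Cd6. Cd6 came nearest to the threshold with that block (limma adjusted p = 0.0539). Cd3e, Cd3d, Cd3g, Cd4 and Zap70 changed by -0.12 to 0.08, and Cd247 by -0.27 (-0.65 to 0.1). For TGFb in WT and in STAT3-deficient cells 1.71% and 2.97% of all genes were called, and limma called 0 of 8 in each (0 unadjusted in each, beside 12.4% and 17.5% of all genes). All 8 changes in WT were below 0, with a median of -0.27 against -0.01 over all genes. In STAT3-deficient cells 4 of 8 were below 0, with a median of -0.02 against -0.02. That count depended on the doubted libraries: without them Zap70 went from 0.19 to -0.16 and Cd3g from 0.12 to -0.09. Only Cd3e (0.33) and Cd3d (0.07) then stayed above 0.

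For IL-6 averaged over TGFb, 1.63% of all genes were called in WT and 0% in STAT3-deficient cells, and limma called 0 of 8 in each. Only Cd4 in WT stood at an unadjusted p under 0.05, beside 12.6% of all genes in WT and 4.44% in STAT3-deficient cells. When IL-6 was added to TGFb, 0.507% were called in WT and 0% in STAT3-deficient cells, and limma called 0 of 8 in each. Unadjusted, 0 passed in each, beside 7.23% and 3.64% of all genes, with Cd5 at 0.73 in WT (95% CI -0.7 to 2.17). The IL-6 and TGFb effects were also compared between genotypes: 0.354% and 0% of all genes were called and limma called 0 of 8 in each (0 unadjusted in each, beside 12.1% and 2.64% of all genes). The largest such difference for IL-6 was that of Zap70, -0.64 (-1.6 to 0.32). For TGFb all 8 differences were above 0, with a median of 0.28 against 0 over all genes. The values of Cd5, Cd6 and Zap70 were smaller without the 2 doubted libraries (Zap70 0.57 with both and 0.22 without them).

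Some of these genes, like many genes outside the set, differed by replicate number. Cd6 was higher in replicate 1 in 8 of 8 groups, by 0.84 on average (SE 0.17, adjusted p = 0.00983), and Cd5 in 8 of 8, by 0.77 (SE 0.24, adjusted p = 0.0423). Thus 2 of 8 passed, where 19.8% of all genes did; the comparison was added after the data were seen. Zap70 was higher in 8 of 8 groups as well, by 0.5 (SE 0.16, adjusted p = 0.0519), and Cd3e lower in 6 of 8, by 0.49 (replicate 1 minus replicate 2 of -0.49, adjusted p = 0.0712). A group informs this difference only through both of its arrays. Leaving out either array of a group therefore gave the same fit, and the 16 fits are not separate checks. The call for Cd6 held with each array left out in turn (adjusted p up to 0.0295) and without the doubted libraries (0.78, adjusted p = 0.0329). That for Cd5 held in 8 of 16 such fits: it was lost without either array of WT medium, STAT3-deficient medium, STAT3-deficient IL-6 or STAT3-deficient TGFb (0.57 to 0.76), and without the doubted libraries (0.65, adjusted p = 0.0852).

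**Figure D4:**
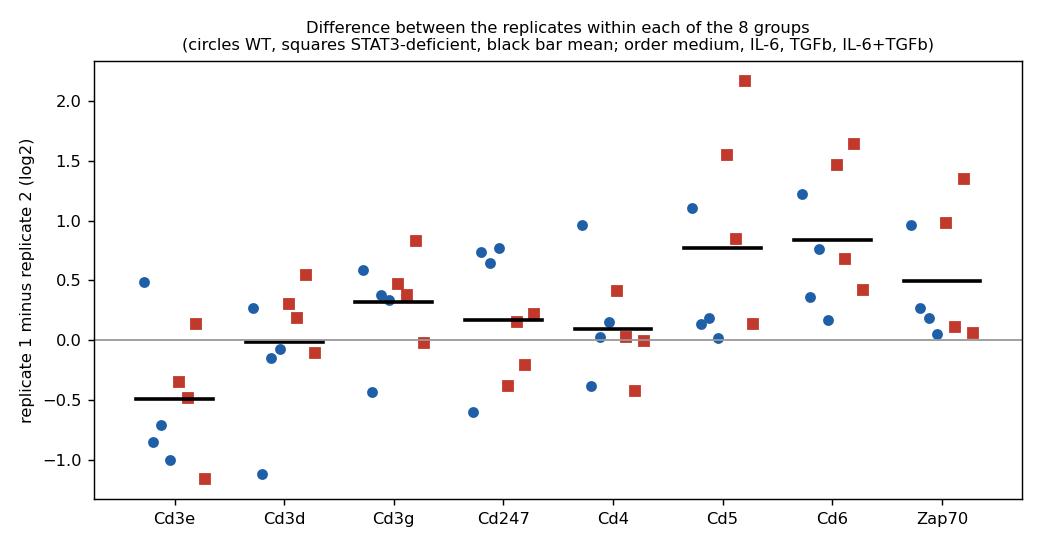
Replicate 1 minus replicate 2 (log2, vertical axis) for 8 genes (horizontal axis); each point is 1 of 8 groups, WT as circles and STAT3-deficient as squares, and the bar is their mean. All points of Cd5, Cd6 and Zap70 lie above 0, those of Cd3e mostly below.

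The probe sets of Cd247 went apart between the replicates. In a fit over 22711 probe sets, 1452539_a_at was higher in replicate 1 by 0.84 (adjusted p = 0.03) and 1426079_at by 0.47 (adjusted p = 0.0155), while 1420716_at changed by -0.97 (adjusted p = 0.00799) and 1426396_at by 0.17 (adjusted p = 0.464). In that fit no member probe set was called in any of the 20 comparisons of groups (lowest adjusted p = 0.255). The replicate number moves with the sex-linked genes and with the 5' minus 3' difference given above, and their parts in these differences cannot be told apart.

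Across the 16 arrays, which share the replicate structure just described, Cd5 and Cd6 correlated at r = 0.96, Cd5 and Zap70 at 0.84 and Cd6 and Zap70 at 0.78. Cd3d and Cd3g correlated at 0.77, Cd3e and Cd3d at 0.54 and Cd3e and Cd3g at 0.23, so the neighbouring CD3 genes were not read in parallel. Cd247 ran against Cd3d (-0.73) and Cd3e (-0.61). The genes most like Cd5 by this measure were Cd6, Icam5 (0.91) and Sptlc1 (0.9), and those most like Cd6 were Cd5, Icam5 (0.91) and Srsf2 (0.91). For Zap70 they were Vipr1, Unc45a and Rundc3a (0.9, 0.9 and 0.88), and for Cd4 Ergic1, Abcd3 and Prrx1 (0.87, 0.87 and 0.85). Cd3g was most like Iscu, Adh1 and Pdcd1 (0.9, 0.87 and 0.87), Cd3d like Smim8, H2az2 and 1810058I24Rik (0.9, 0.89 and 0.87), Cd3e like Zfp664, Rap2b and Sdr39u1 (0.87, 0.85 and 0.85) and Cd247 like Tlr6, Baz1a and Trim25 (0.89, 0.86 and 0.86).

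Other genes of the pathway came from a list of 80, of which 68 were on the array with a single symbol and 66 were tested. The list holds coreceptors and costimulators, kinases, adaptors, inhibitors and the calcium and NF-kB branch. Between genotypes it gave 0 higher and 3 lower under IL-6, 0 and 1 under IL-6 with TGFb, 0 and 1 on the mean over conditions, and 0 in medium and in TGFb (0 unadjusted in both). Over all genes 3.29%, 1.19%, 0.969%, 0% and 0% were called in these comparisons. With the replicate block these counts became 0 and 14, 1 and 3, and 0 and 10, and stayed 0 in medium and in TGFb, beside 11.5%, 2.48% and 5.36% of all genes called in the first 3 comparisons with the block. The list's median change under IL-6 was -0.38, against -0.03 over all genes.

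Itpr3, an inositol trisphosphate receptor that releases calcium from the endoplasmic reticulum after receptor signalling, was the gene called most often. It read 9.17 and 9.32 in WT IL-6 and 8.27 and 8.46 in STAT3-deficient IL-6, and 10.38 and 10.3 in WT IL-6 with TGFb against 9.16 and 8.9 in STAT3-deficient cells. Neither pair overlapped. The changes were -0.88 (SE 0.19, adjusted p = 0.0303) and -1.31 (SE 0.19, adjusted p = 0.00688), and -0.56 on the mean over conditions (adjusted p = 0.0203). With IL-6 it was higher in WT by 0.64 (adjusted p = 0.0341), a call lost without any 1 of the 8 WT arrays, and the IL-6 effect was lower in STAT3-deficient cells by 1.07 (difference -1.07, adjusted p = 0.0404). Left-out arrays moved its change by little (-0.98 to -0.78 under IL-6) but ended the call under IL-6 for each of the 4 arrays, and under IL-6 with TGFb for all but STAT3-deficient replicate 1. The call on the mean over conditions was lost without WT medium replicate 2, WT TGFb replicate 2, either WT IL-6 with TGFb array, STAT3-deficient medium replicate 2 or STAT3-deficient IL-6 with TGFb replicate 2 (up to 0.0718), and without the doubted libraries (0.0529).

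Under IL-6, Nck1, an adaptor that links the receptor to the cytoskeleton, changed by -1.19 (SE 0.17, adjusted p = 0.0109) and Plcg1, the phospholipase that makes inositol trisphosphate, by -0.93 (SE 0.2, adjusted p = 0.0334). Each has 1 other tested probe set of opposite sign in this comparison. The call for Nck1 needed the STAT3-deficient IL-6 array of replicate 1 (adjusted p = 0.0617 without it), and that for Plcg1 needed each of the 4 arrays (up to 0.177 without 1).

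With TGFb present against absent, averaged over genotypes and IL-6, 7 of 66 rose and 3 fell, against 9.25% of all genes called in either direction. With the replicate block 12 rose and 5 fell, against 16.3% of all genes. Of the kinases, Txk rose by 1.72 (SE 0.38, adjusted p = 0.0168) and Tec by 1.05 (SE 0.22, adjusted p = 0.0131), both of the Tec family that activates phospholipase C. The Txk call was lost without the doubted libraries (1.48, adjusted p = 0.0798). In the calcium branch Itpr3 rose by 0.77 (adjusted p = 7.25e-04), Plcg1 by 0.69 (0.00241) and Stim2, a calcium sensor of the endoplasmic reticulum, by 0.56 (0.0115), whereas Orai1, the channel that STIM proteins open, fell by 0.76 (log2 change -0.76, adjusted p = 0.00671).

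The adaptor Sit1 rose by 1.03 (adjusted p = 0.00596) and the phosphatase Ptpn22 by 0.46 (adjusted p = 0.0441). Tespa1, which assists calcium signalling in thymocytes, fell by 1.29 (log2 change -1.29, adjusted p = 0.0144) and Sla, which promotes receptor degradation, fell by 1 (log2 change -1, adjusted p = 0.0104). The Ptpn22 call held in 2 of 16 fits with an array left out (without STAT3-deficient IL-6 replicate 1 or STAT3-deficient TGFb replicate 2) and not without the doubted libraries (adjusted p = 0.103). The other 9 held with each array left out.

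**Figure D5:**
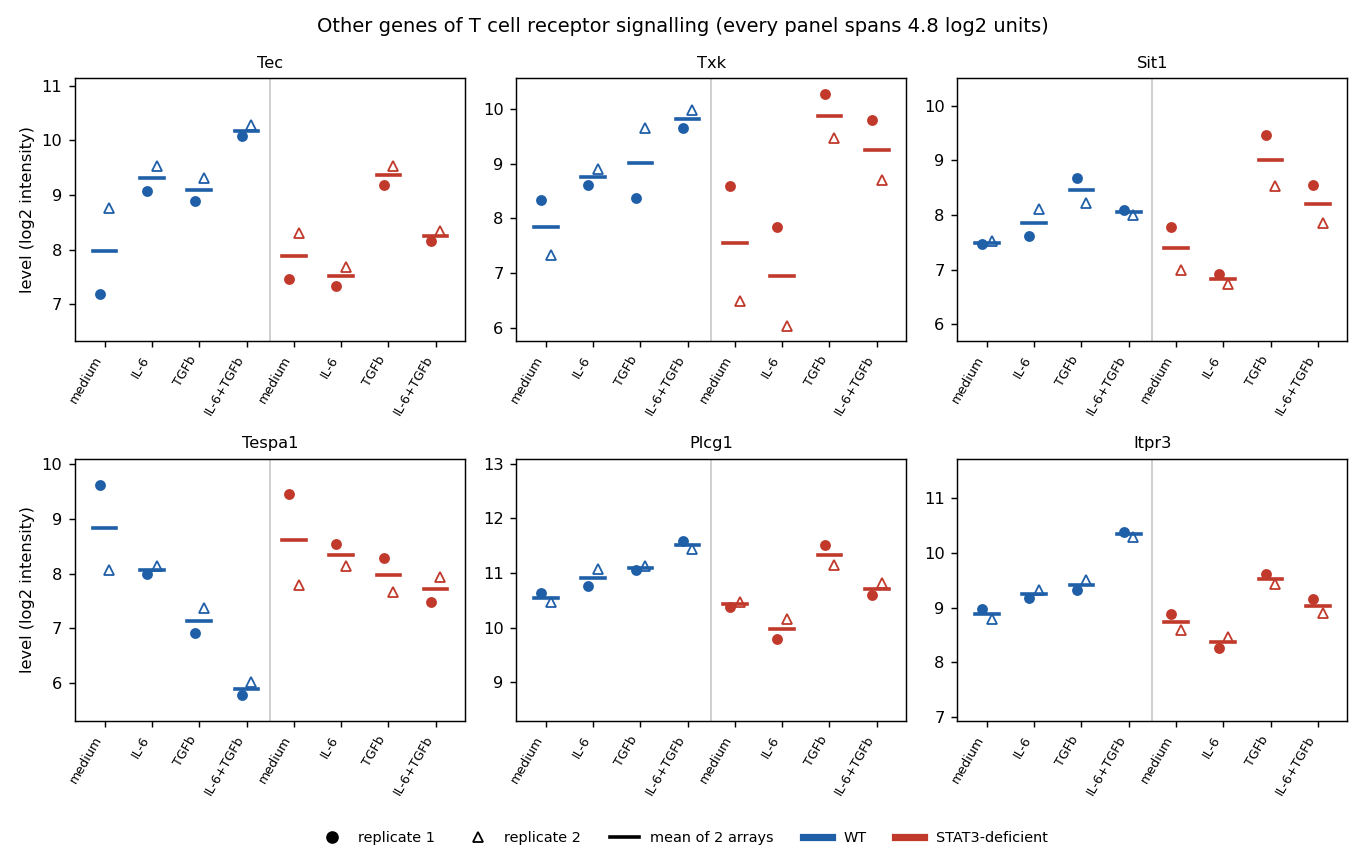
Level (log2 intensity, vertical axis) of 6 other genes of T cell receptor signalling on 16 arrays by condition (horizontal axis), WT in blue and STAT3-deficient in red; circles are replicate 1, triangles replicate 2 and bars the mean of 2 arrays. Tespa1 is lowest and Itpr3 highest in WT IL-6 with TGFb.

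Within a genotype, 3 of the 66 rose and 1 fell from medium to IL-6 with TGFb in WT, where 3% of all genes were called (4 and 4 with the block, which called 6.4% of all genes). These were Tec (2.19, adjusted p = 0.0222), Itpr3 (1.45, adjusted p = 0.00229), Plcg1 (0.95, adjusted p = 0.0313) and Tespa1 (-2.94, adjusted p = 0.0154). Tespa1 read 9.63 and 8.06 in WT medium and 5.78 and 6.02 in WT IL-6 with TGFb, where it lay near or under the level minimum. The Itpr3 call held without each of the 4 arrays, that for Plcg1 was lost without any 1 of them, and those for Tec and Tespa1 held only without WT medium replicate 2. TGFb averaged over IL-6 gave Itpr3 (0.81, adjusted p = 0.00972) and Tespa1 (-1.94, adjusted p = 0.0298) in WT, where 1.71% of all genes were called (2 and 2 with the block, which called 3.32%). The first was lost without WT TGFb replicate 2 or WT IL-6 with TGFb replicate 1, and the second held only without WT medium replicate 2, and not without the doubted libraries (adjusted p = 0.0506).

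In STAT3-deficient cells the same average gave Txk (2.32, adjusted p = 0.0419), Sit1 (1.49, adjusted p = 0.0126), Plcg1 (0.81, adjusted p = 0.0144) and Itpr3 (0.72, adjusted p = 0.0163), where 2.97% of all genes were called; the block gave 10 higher and 2 lower, beside 6.76% of all genes. All 4 calls were lost without both doubted libraries (changes of 1.85, 1.09, 0.78 and 0.61), which leaves 1 array in each STAT3-deficient group with TGFb. Without STAT3-deficient TGFb replicate 1 alone, the Sit1, Plcg1 and Itpr3 calls held and the Txk call was lost. Each call was also lost without at least 1 other array. With 1 array left out the changes ran from 1.79 to 2.85, 1.26 to 1.72, 0.72 to 0.9 and 0.65 to 0.79. The remaining comparisons include IL-6 against medium in WT, TGFb against medium in STAT3-deficient cells and IL-6 added to TGFb in WT. In these, limma gave 0 without the block and 1, 2 and 2 with it, beside 1.68%, 1.51% and 1.08% of all genes. Each had 13 of 66 genes at an unadjusted p under 0.05, beside 12.6%, 12.4% and 7.23% of all genes. Limma gave 0 with and without the block for the comparisons that follow, given with their unadjusted count and the unadjusted share of all genes. These were TGFb against medium in WT (12, 10.8%), and IL-6 (0, 1.33%) and IL-6 with TGFb (4, 5.98%) against medium in STAT3-deficient cells. Further ones were IL-6 averaged over TGFb (7, 4.44%) and IL-6 added to TGFb (5, 3.64%) in STAT3-deficient cells, and the difference of TGFb effects between genotypes (5, 2.64%). The IL-6 average in WT and the difference of IL-6 effects gave Itpr3 alone, as above. With the block they gave 5 higher and 1 lower, and 0 higher and 3 lower, beside 3.37% and 1.86% of all genes.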

How the data were processed

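The 16 arrays are 1 colour Affymetrix arrays of total RNA. Per the submitters' processing notes the authors used RMA to summarise probes. The deposited intensity values were linear whole numbers (100% of them) from 6 to 37243. For the RMA version and the step to a linear scale, the answer is not given in the sources used here. Array medians lay between 66 and 73. Titles and genotype labels gave the groups.

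Log2 of the intensity was taken with no pseudocount. Of 45101 probe sets, 64 controls and 932 with several symbols were left out, and each gene was read by the probe set whose mean was highest. Genes at log2 6 or more on at least 2 arrays were tested (13007 of 18193). Means of the 8 groups were fitted over all 16 arrays in 1 limma model (3.58.1, R 4.3.3; lmFit and eBayes, two-sided, Benjamini-Hochberg within a comparison, threshold 0.05), for 16 planned and 4 added comparisons. The model was run on simulated data whose noise was independent between arrays. That noise had no replicate structure, so the run cannot show how the model behaves with the replicate differences of these arrays. Python 3.11.15 and matplotlib 3.10.9 drew the figures. The number of arrays limits the precision.

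Replicate numbers, from the titles, were checked: deviations of same-numbered arrays correlated at 0.11 to 0.86 (28 pairs of groups, median 0.33), so the numbers pair the samples. Named were all members, their 3 most correlated genes, and up to 4 called genes of the wider list per comparison and role. Intervals, SEs and unadjusted counts for comparisons of groups come from the fit without the replicate block unless the block is named. Alternatives were the replicate block, other filters, scalings and probe set rules, array weights and left-out arrays. The members and lists were chosen with earlier results of these data known.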

Additional observations from a re-analysis of the deposited data

Results flagged for a closer look

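Itpr3 was the gene of the wider list whose response to IL-6 differed between the genotypes by a test of the difference itself: the IL-6 effect in STAT3-deficient cells minus that in WT was -1.07 on the log2 scale (SE 0.19, limma adjusted p = 0.0404). Of 12 alternatives 8 kept the call, among them the replicate block (adjusted p = 0.0207). It was lost with quantile normalization (-0.92, adjusted p = 0.132), an intensity trend (0.0531) and a test over all probe sets (0.0503). The call held without WT IL-6 replicate 1, WT IL-6 replicate 2 or STAT3-deficient TGFb replicate 2, and was lost without any 1 of the other 13 arrays (up to 0.124) and without the doubted libraries (replicate 1 of STAT3-deficient TGFb and of STAT3-deficient IL-6 with TGFb) (-1.09, adjusted p = 0.122). Its value stayed between -1.14 and -1 with each array left out.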

How the results depend on the processing

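Members called stayed at 0 of 8 in each of the 20 comparisons under 12 alternatives. In each comparison the arrays of the groups compared, not always all 16, were also left out in turn, and no member call appeared. With the replicate block, which pairs arrays of the same number, 0 members were called as well; beside the counts of the wider list given in the report it changed no other call of a gene named there. Over all genes the block raised the calls between genotypes from 428 to 1490 under IL-6 and from 155 to 322 under IL-6 with TGFb. The 27 calls of the wider list were refitted under 604 settings; 474 were past the threshold and 0 had the sign turned. Their counts ran from 0 to 14 under IL-6 between genotypes and from 9 to 17 for TGFb averaged over the design. Array weights ended the IL-6 genotype calls of Itpr3, Nck1 and Plcg1 (adjusted p = 0.118, 0.053 and 0.11), as did a fit on only the arrays compared (0.261, 0.175 and 0.26). Quantile normalization ended those of Itpr3 and Plcg1, the Actb 5' minus 3' term with the replicate block that of Itpr3 (0.0567), and the mean of all probe sets those of Nck1 and Plcg1, and also the Plcg1 call for TGFb averaged over the design. Groups of 2 arrays limit what can be seen: 95% intervals reached about 1 log2 unit for Cd3e within a condition. Where an array was left out, the lone array of its group was assumed to vary like the other groups.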
